A study of Mus musculus with 38 samples.

Results

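The nuclear genes of the respiratory chain were followed at the level of their promoters in mouse soleus muscle. A promoter here is a cluster of transcription start sites found by Cap Analysis of Gene Expression (CAGE), in which the 5′ ends of capped RNAs are sequenced and counted as tags. Clusters were taken whose highest position lay within 500 bp, on the same strand, of an annotated 5′ end of a protein-coding gene for complex I (symbols beginning Nduf), complex II (Sdha, Sdhb, Sdhc, Sdhd), complex III (Uqcr and Cyc1), cytochrome c (Cycs), complex IV (Cox4 to Cox8) or complex V (Atp5). This rule gave 101 of the 10819 clusters, and it used position and symbol but no measured change. They belong to 90 of the 95 genes with such symbols, and Cox4i2, Cox6b2, Cox7b2, Cox8c and Ndufa13 had no cluster inside the window. The 101 promoters comprised 7 of complex I core subunits, 29 of complex I accessory subunits, 8 of complex I assembly factors, 4 of complex II, 11 of complex III, 1 of cytochrome c, 18 of complex IV and 23 of complex V. Ndufa4, Ndufa4l2 and Cox7a2l were counted with complex IV and Cyc1 with complex III. For genes with several clusters the one with the most tags carries the gene's symbol and the others are numbered p2, p3 and so on.

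The study asked which transcripts of skeletal muscle accompany fasting-induced torpor, a regulated fall in metabolism and body temperature, in male C57BL/6J mice. Each library came from the soleus of 1 mouse. In experiment #1 there were 4 Pre mice (fed, day 1), 8 Mid mice (food withdrawn, torpor, day 2), 4 Post mice (food returned, day 3), 4 HiT mice (high ambient temperature, day 2), 4 mice of the group named Fed (low ambient temperature, day 2) and 4 Dep mice (food withdrawn, torpor prevented by touching, day 2). Experiment #2 was a separate set of mice in another sequencing run, with 2 Pre, 5 Mid and 3 Post libraries. The torpor protocol of the study also used low ambient temperature, which was not changed between days, so low temperature did not set Fed apart. The study describes its Mid mice at sampling as torpid or between torpid states. The sources differ on the food of 2 groups. The paper of the study describes HiT mice as fasted and Fed mice as fed. It reports a higher respiratory quotient in Fed than in Mid and HiT mice, and ascribes this to the food. The series description instead gives HiT mice food, and the sample labels call the Fed condition starvation. On the account of the paper Pre and Fed were both fed, so that Pre to Fed is no contrast of feeding. The group names are used here, and food in these groups was not checked. The mice carried no transgene, and since each group held whole muscle of young adult males from a single inbred strain, the p-values measure only the spread between such mice.

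The respiratory chain passes electrons from NADH through complex I, or from succinate through complex II, to ubiquinone, then through complex III and cytochrome c to oxygen at complex IV, and complexes I, III and IV pump protons that drive ATP synthesis by complex V. Most of its subunits are encoded in the nucleus and the rest in mitochondrial DNA, so that the complexes are built from parts of both genomes, and complex II is entirely nuclear. The soleus is rich in slow, oxidative fibres with many mitochondria, in which these genes are transcribed at high levels. Nuclear respiratory factor 1 (NRF1), the ETS factor GABP, the estrogen-related receptors (ERR) and YY1 are known regulators of such promoters, together with the coactivator PGC-1α.

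The 10819 clusters held between 18257657 and 39176649 tags per library in experiment #1 and between 9359994 and 20914855 in experiment #2. Levels below are CPM, the tags of a promoter relative to the TMM-scaled total of its library within each experiment, unless TPM, the deposited values without TMM scaling, is named. CAGE counts 5′ ends, so that levels of different genes need no correction for length. The slow fibre marker promoters summed to between 13901 and 24007 CPM in experiment #1, and the fast fibre markers to between 18947 and 28668 CPM, so that both fibre types were present in each. Macrophage markers summed to 106.5 to 223 CPM in the 4 HiT libraries and to 35.5 to 69.4 CPM in the other libraries of experiment #1. Library Fed 2 held 13752 CPM of red blood cell markers, against 1887 to 5134 CPM elsewhere in experiment #1. Library Dep 1 held 133 CPM of neutrophil markers, against at most 1.56 CPM in the other 27 libraries of experiment #1.

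The respiratory chain promoters were among the strongest of the muscle. Their median level in experiment #1 was 411 TPM, against 16.7 TPM over all promoters, and 89 of the 101 lay above the latter value. Of the 100 largest clusters 15 were members, and of the 500 largest 66 were. Their summed share of the tags ranged from 3.84% in a HiT library to 8.33% in a Pre library. That HiT library, HiT 4, held 37.1% of its tags at gene starts, against 49.0% to 72.0% elsewhere in experiment #1. With TMM scaling its member sum was 59217 CPM, above the 55352 CPM of HiT 1. Levels of single members ran from 1.64 TPM for Cox6b1 p2 to 7028 TPM for Cox6a2, the heart and skeletal muscle form of a complex IV subunit. Cox8b, the muscle form of another complex IV subunit, followed with 4667 TPM. No member was at 0 tags in any library, and the fewest tags of a member in a library were 16, for Cox6b1 p2. All 101 therefore entered every test. Counting error is larger for weak promoters, and the shares over all promoters given below are not matched for level.

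Most members began close to the annotated gene start, since 86 of the 101 had their highest position within 50 bp of it. The median width of the clusters was 308 bp, against 281 bp for all clusters. The members farthest from a start were Atp5b p2 at 487 bp upstream (11.4 TPM) and Ndufb11 at 344 bp downstream (475 TPM). Just beyond the limit lay clusters 567 bp from Cox5b (2.52 TPM) and 587 bp from Cox6a2 (3.93 TPM). The cluster nearest to Ndufa13, an accessory subunit of complex I, lay 917 bp away and reached 1758 TPM. It fell outside the 500 bp limit, and whether it serves this gene was not tested. Near Atp5b, 3 of its minor clusters shared their window with the small RNA genes Snord59a or Mir677, and tags of these clusters cannot be assigned to either gene alone.

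The letters of the promoters were read from RefSeq (build GRCm38.p6), which held 72 of the 90 genes, from 250 bases before to 50 after the start. The 6 stretches below are examples that hold the named motif, shown in capitals. Their genes recur in the results, except Atp5g3, which is named again only for its level in Pre.
Cox8b, muscle form of a complex IV subunit (chr7:140900397-140900596, minus strand), TATA box: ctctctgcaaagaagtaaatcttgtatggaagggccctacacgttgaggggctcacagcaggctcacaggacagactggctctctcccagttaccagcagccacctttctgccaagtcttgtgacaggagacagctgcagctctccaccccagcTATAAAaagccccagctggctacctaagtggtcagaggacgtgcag
Cox6a1, general form of a complex IV subunit (chr5:115348929-115349128, minus strand), NRF1 core on both strands: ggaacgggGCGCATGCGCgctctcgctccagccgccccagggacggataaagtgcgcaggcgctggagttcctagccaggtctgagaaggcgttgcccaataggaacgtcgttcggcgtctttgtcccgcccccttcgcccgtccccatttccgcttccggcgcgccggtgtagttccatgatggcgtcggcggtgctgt
Cycs, the somatic cytochrome c (chr6:50566520-50566719, minus strand), NRF1 core on the reverse strand: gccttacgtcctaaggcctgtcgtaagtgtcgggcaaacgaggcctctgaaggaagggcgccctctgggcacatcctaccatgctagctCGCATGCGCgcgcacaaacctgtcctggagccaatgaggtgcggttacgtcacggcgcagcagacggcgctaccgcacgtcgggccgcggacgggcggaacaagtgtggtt
Uqcrc1, core protein of complex III (chr9:108936498-108936697, plus strand), NRF1 core on both strands: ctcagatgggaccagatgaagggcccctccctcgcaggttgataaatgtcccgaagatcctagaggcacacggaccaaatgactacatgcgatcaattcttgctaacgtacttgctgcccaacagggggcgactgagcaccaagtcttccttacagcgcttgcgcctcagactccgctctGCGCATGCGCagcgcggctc
Atp5g3, a gene for the membrane ring subunit c of complex V (chr2:73911277-73911476, minus strand), ERR element on the reverse strand: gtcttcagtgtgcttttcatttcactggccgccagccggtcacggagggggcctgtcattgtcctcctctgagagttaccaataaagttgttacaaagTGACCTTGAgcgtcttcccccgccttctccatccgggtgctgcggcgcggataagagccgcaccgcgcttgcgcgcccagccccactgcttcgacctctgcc
Ndufaf8, assembly factor of complex I (chr11:120098765-120098964, plus strand), YY1 element: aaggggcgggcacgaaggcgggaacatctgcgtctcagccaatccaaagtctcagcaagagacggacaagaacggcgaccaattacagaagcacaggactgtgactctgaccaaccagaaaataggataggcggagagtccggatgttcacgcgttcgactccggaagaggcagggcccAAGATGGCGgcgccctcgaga
The TATA box of Cox8b began 30 bases before its CAGE peak. The NRF1 cores began 162 bases before the peak of Cox6a1, 156 before that of Cycs and 21 before that of Uqcrc1, the ERR element 76 bases before the peak of Atp5g3, and the YY1 element 9 bases after the peak of Ndufaf8.

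The NRF1 core (GCGCATGCG on either strand, where the palindrome GCGCATGCGC matches on both strands at overlapping bases) occurred in 11 of the 72 member promoters, or 15.3%, against 1.81% of all 27025 promoters in the table. The YY1 letters (AAGATGGCG) occurred in 9.72% against 1.49%, the ETS letters (CCGGAAGT) in 6.94% against 4%, the ERR letters (TCAAGGTCA) in 2.78% against 0.407% and the GC box (GGGCGG) in 43.1% against 35.9%, all on either strand. TATAAA occurred in 8.33% of the member promoters and in 14.2% of all. By class, the NRF1 core was found in 2 of 5 promoters of complex III, 3 of 13 of complex V, 2 of 7 assembly factors, 2 of 26 accessory subunits of complex I, 1 of 12 of complex IV and that of Cycs. The median log2 fold change from Pre to HiT was -0.27 for the 11 genes with the core and -0.39 for the 61 without it, and from Pre to Fed it was -0.32 and -0.31. A match of letters is not a measured binding site.

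The summed level of all 101 promoters was highest on average in Pre and lowest in HiT. The sum was 76982 ± 1204 CPM (SD, n = 4) in Pre, 70040 ± 4259 (n = 8) in Mid and 72924 ± 3119 (n = 4) in Post. It was 73381 ± 4629 in Dep, but 59397 ± 3631 in HiT and 61476 ± 7923 in Fed (n = 4 each). The 4 HiT libraries (55352 to 64177 CPM) all lay below the 4 Pre libraries (75993 to 78521 CPM). In a bulk sample, fewer cells of a type and less RNA per cell cannot be told apart. The Fed group was split, since Fed 1 and Fed 2 reached 56922 and 52987 CPM and Fed 3 and Fed 4 reached 70287 and 65706 CPM.

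**Figure D1:**
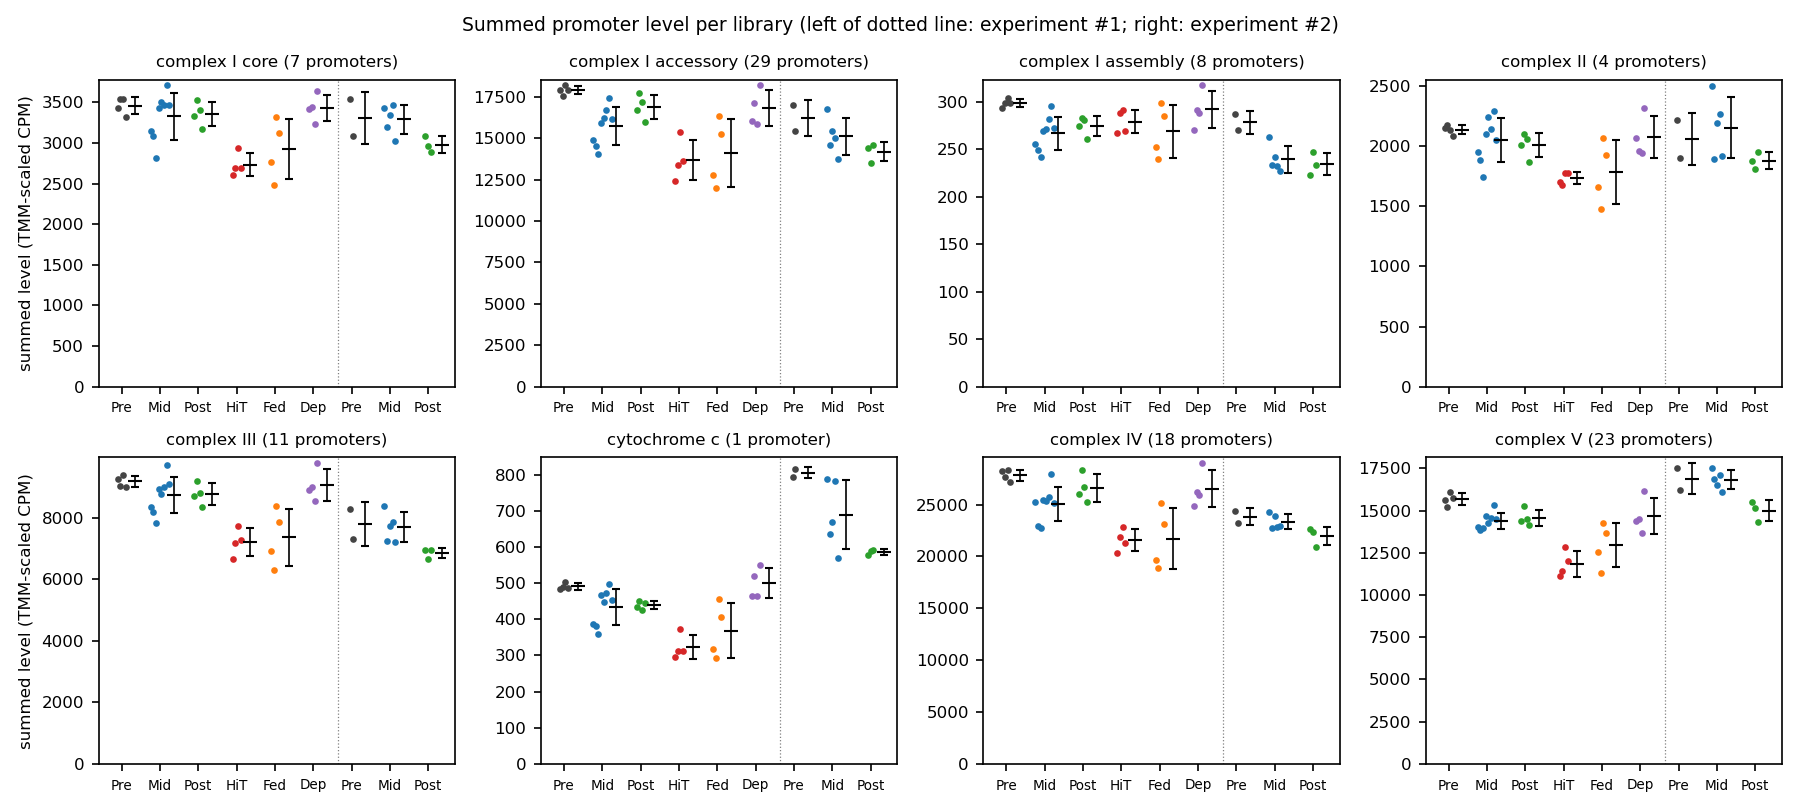
Summed level (TMM-scaled CPM) of the promoters of each class in every library, with points for mice, bars for mean ± SD and a dotted line between experiments #1 and #2. The sums of complexes I, III, IV and V are lowest on average in HiT and Fed of experiment #1, and the 4 Fed mice spread widely (18843 to 25181 CPM for complex IV).

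From Pre to Mid, the comparison of torpor with the fed day before it, 22 of the 101 promoters were down-regulated and none was up-regulated at FDR below 0.05 (edgeR's quasi-likelihood test). Over all promoters 14.8% were down-regulated and 15.4% up-regulated. No member was higher at an unadjusted p below 0.05, and the likelihood ratio test and DESeq2 also called 0 up, with 19 and 24 down. The members' median log2 fold change was -0.16, beside 0.01 over all promoters. The changes were small, and the largest among those called was that of Ndufa4l2. By class, 7 of 29 accessory subunits of complex I, 3 of 8 assembly factors, 1 of 4 of complex II, 4 of 18 of complex IV and 7 of 23 of complex V were down-regulated. Of the 7 complex I core and 11 complex III promoters 0 passed the test, with 1 and 2 at an unadjusted p below 0.05 and 0 by either other tool. The count of 22 depended on single libraries and on scaling. It was 14 without Pre 1, 8 without Pre 3, 11 without Mid 2 and 14 without Mid 8, and it was 4 without TMM and 50 with upper-quartile scaling.

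The promoters that fell most from Pre to Mid belonged to different complexes. Ndufa4l2, a relative of the complex IV subunit Ndufa4 known as induced in low oxygen, stood at 20.6, 23.0, 22.5 and 26.3 CPM in the Pre mice and at 14.6 to 21.5 CPM (median 16.2) in the Mid mice. Only the highest Mid library, Mid 6, overlapped the Pre range. The log2 fold change was -0.46 (SE 0.11, FDR 0.00257).

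Atp5e, the epsilon subunit in the central stalk of complex V, read 1993, 1862, 2354 and 1798 CPM in Pre and 1315 to 1793 CPM (median 1430) in Mid. All 8 Mid libraries lay below the Pre libraries, with a log2 fold change of -0.43 (SE 0.10, FDR 0.00264). Ndufv3, an accessory subunit on the NADH-binding arm of complex I, was at 319, 311, 335 and 286 CPM in Pre and 212 to 255 CPM (median 234) in Mid. Its groups did not overlap either, and it fell by 0.41 on the log2 scale (SE 0.09, FDR 0.000973). Ndufb8, an accessory subunit of the membrane arm, fell by 0.39 (SE 0.13, FDR 0.0219), but its Pre libraries read 1010, 956, 1072 and 1593 CPM, overlapped the Mid range of 702 to 1049 CPM, and gave no call without Pre 4. Ndufaf8 stood at 91.2, 93.3, 96.0 and 99.0 CPM in Pre and 64.7 to 84.4 CPM (median 77.5) in Mid, again without overlap, with a log2 fold change of -0.31 (SE 0.07, FDR 0.00131).

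**Figure D2:**
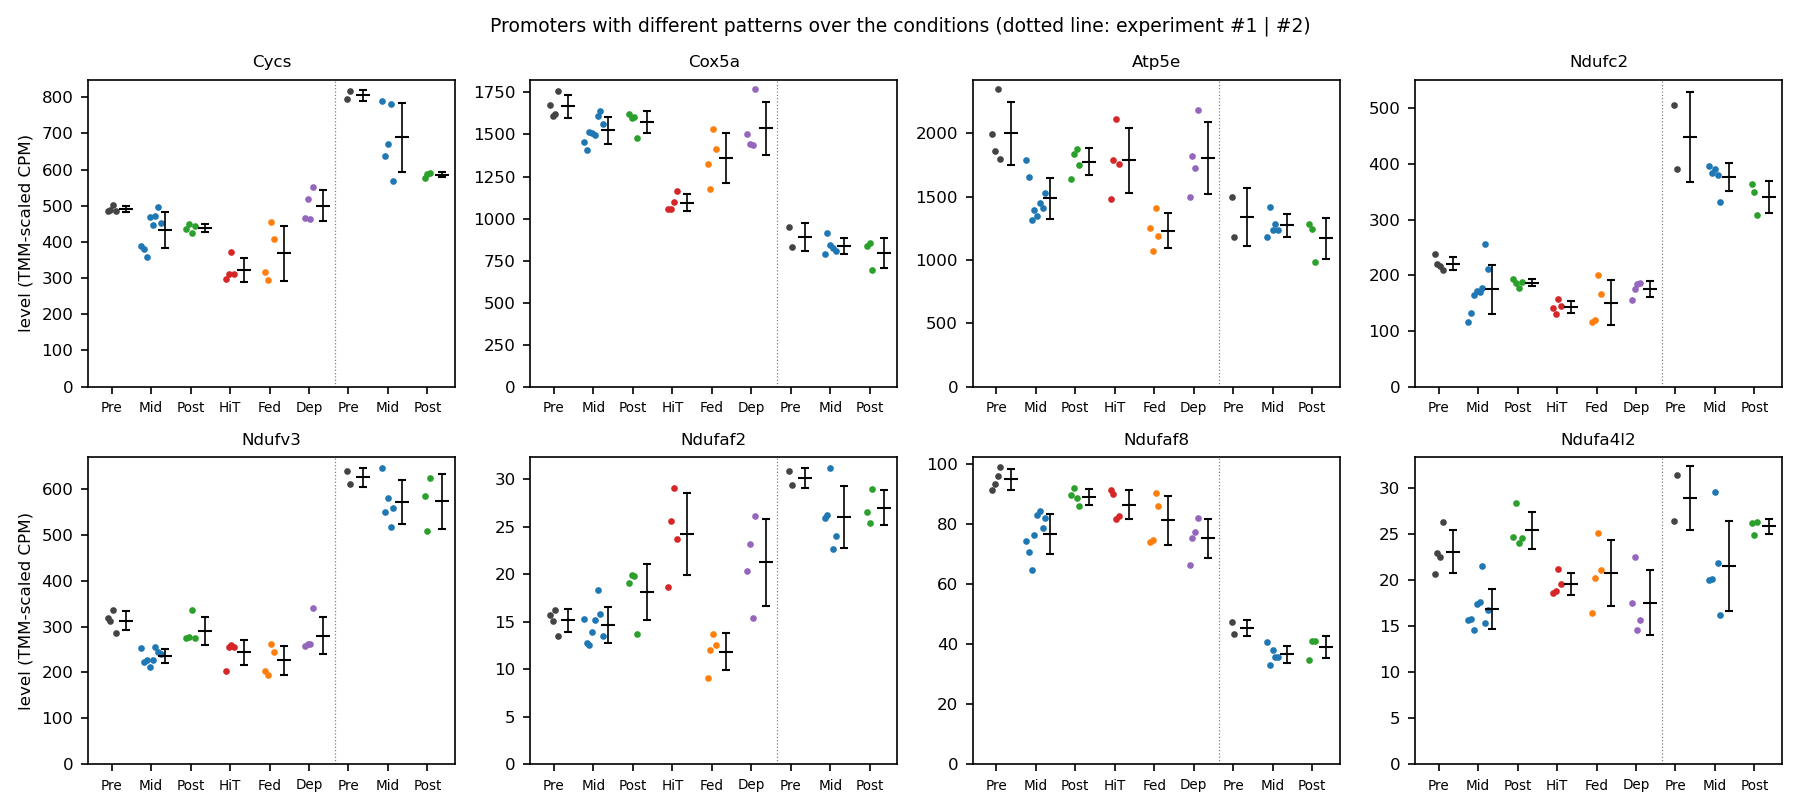
Level (TMM-scaled CPM) of 8 named promoters in every library, with points for mice and bars for mean ± SD. Within experiment #1, Ndufv3, Ndufaf8 and Ndufa4l2 are lower in Mid than in Post, and on average Cycs and Cox5a are lowest in HiT, Atp5e is lowest in Fed and Ndufaf2 is highest in HiT.

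From Mid to Post, when food was returned, 3 promoters were up-regulated and 4 down-regulated, against 17.5% up and 17.5% down over all promoters, and the median was 0.05 beside -0.01. The 3 that rose were Ndufa4l2, Ndufv3 and Ndufaf8, whose fall from Pre to Mid is given above. The 2 comparisons share the Mid libraries. Ndufa4l2 read 24.7, 28.4, 24.0 and 24.6 CPM in Post, above every Mid library, and the log2 fold change was 0.60 (SE 0.11, FDR 0.00015). Ndufv3 (275, 277, 337 and 275 CPM) rose by 0.31 (SE 0.09, FDR 0.0095) and Ndufaf8 (89.7, 92.1, 88.6 and 85.9 CPM) by 0.21 (SE 0.07, FDR 0.0169), both without overlap with Mid.

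The 4 that fell from Mid to Post were Uqcrc1 p3, Sdhc and the complex I assembly factors Ndufaf1 and Ndufaf6. Sdhc, which anchors complex II in the membrane, was at 51.1, 53.6, 52.4 and 54.4 CPM in Post and 50.3 to 74.8 CPM (median 64.0) in Mid. It fell by 0.24 on the log2 scale (SE 0.09, FDR 0.033), although the groups overlapped. Ndufaf1 and Ndufaf6 each fell by 0.21 (FDR 0.0163 and 0.0423). Uqcrc1 p3, a minor cluster of 1.85 to 4.75 CPM in these groups, fell by 0.62 (SE 0.23, FDR 0.0352). The split of 3 up and 4 down depended on scaling, as it was 15 up and 0 down with upper-quartile scaling and 1 up and 0 down without TMM. Without single libraries the total ranged from 2 (without Post 3) to 7, with 4 each without Mid 8, Post 1 or Post 2. Ndufa4l2 was called throughout, Ndufv3 was lost without Post 3 and Ndufaf8 without Post 1 or Post 2. The 4 that fell were each lost without Post 3, and Ndufaf1 also without Mid 8, Uqcrc1 p3 without Mid 5, Mid 6, Mid 7, Post 2 or Post 4, Sdhc without Mid 1, Mid 2, Mid 5, Mid 8, Post 1 or Post 2, and Ndufaf6 without Mid 2, Mid 4, Mid 7, Mid 8 or Post 1.

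From Pre to Post, 3 members differed and all were lower, Ndufaf6 (log2 fold change -0.36, SE 0.09, FDR 0.0347), Ndufaf1 (-0.31, SE 0.08, FDR 0.0285) and Sdhd, the other membrane anchor of complex II (-0.30, SE 0.08, FDR 0.0347). Over all promoters 0.798% were lower and 1.05% higher. No member was higher, with 0 at an unadjusted p below 0.05 and 0 by the likelihood ratio test and DESeq2. Ndufaf6 read 31.7, 36.4, 36.1 and 34.1 CPM in Pre and 24.0, 29.1, 25.1 and 29.3 CPM in Post. Sdhd read 120, 110, 126 and 110 CPM in Pre and 89.1, 89.1, 98.8 and 100 CPM in Post. Both pairs of groups were separate. The count was 0 without Pre 3, Post 1, Post 2 or Post 3 and 1 without Pre 1 or Pre 2.

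The largest difference from Pre was found in HiT. Of the 101 promoters 66 were down-regulated and 1 was up-regulated, against 14.9% and 18.5% of all promoters, and the median log2 fold change was -0.37, beside 0.04 over all promoters. All 7 core subunits of complex I were down-regulated, as were 22 of 29 accessory subunits, 3 of 4 promoters of complex II, 7 of 11 of complex III, that of Cycs, 11 of 18 of complex IV and 14 of 23 of complex V. The 8 assembly factors differed, with 1 down (Ndufaf1), 1 up (Ndufaf2) and a median of -0.10, while the other class medians ranged from -0.60 to -0.35. Complexes III, IV and V include weak minor clusters, namely those of Uqcrc1, Cox6b1, Cox6c, Atp5a1 and Atp5b, and none of these was called. Without any 1 library the total called ranged from 62 to 72, and it was 67 without TMM. Library composition moved with this result. All 7 macrophage markers were up-regulated from Pre to HiT and none was down-regulated, 3 of 9 slow fibre markers (median -0.33) and 5 of 12 fast fibre markers (median -0.38) were down-regulated with none up-regulated, and the summed tendon and fibroblast markers reached 2725 to 5510 CPM in HiT against 2486 to 3117 CPM in Pre. Their part in the result was not tested.

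In the core of complex I all 7 promoters fell. Ndufs8, which carries iron-sulphur clusters in the electron path, went from 123, 120, 132 and 124 CPM in Pre to 84.7, 84.8, 96.0 and 87.8 CPM in HiT (-0.50, SE 0.08, FDR 2.96e-05). Ndufv1, which binds NADH, went from 845, 855, 799 and 692 to 598, 616, 612 and 643 CPM (-0.37, SE 0.13, FDR 0.0239). In both the HiT libraries lay below every Pre library. Ndufv1 was not called without Pre 1, Pre 2, HiT 1 or HiT 3. Among the accessory subunits, Ndufb9 fell from 1422 ± 60 to 944 ± 46 CPM (-0.59, SE 0.08, FDR 6.89e-06), Ndufc2 from 220.7 to 143 CPM (-0.62, SE 0.17, FDR 0.00648) and Ndufb11 p2 from 49.4 to 31.4 CPM (-0.66, SE 0.09, FDR 2.78e-06). Ndufb5, among the strongest accessory promoters, read 1464, 1421, 1528 and 1455 CPM in Pre and 1089, 1138, 1504 and 1200 CPM in HiT and did not pass the test (FDR 0.0717).

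Ndufaf2, which acts late in the assembly of complex I, moved the other way. It read 15.7, 15.1, 16.3 and 13.5 CPM in Pre and 18.7, 25.6, 29.1 and 23.7 CPM in HiT. All HiT libraries were above all Pre libraries, and the log2 fold change was 0.68 (SE 0.16, FDR 0.0016). Ndufaf8 and Ndufaf4, the strongest assembly factor promoters, read 86.5 and 42.0 CPM on average in HiT, against 94.9 and 43.8 CPM in Pre, and neither passed the test.

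Of complex II, the catalytic flavoprotein Sdha fell from 932, 937, 897 and 887 CPM to 719, 715, 681 and 763 CPM (-0.34, SE 0.10, FDR 0.00791). Sdhc fell from 65.3, 63.0, 62.8 and 59.6 to 48.2, 44.8, 39.8 and 44.7 CPM (-0.50, SE 0.10, FDR 0.000406) and Sdhd from 116.5 to 86.7 CPM on average (-0.43, SE 0.08, FDR 0.000109). Sdhb, the iron-sulphur subunit, was at 1033, 1064, 1053 and 1027 CPM in Pre and 855, 834, 968 and 874 CPM in HiT, also without overlap, but its FDR was 0.0632.

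In complex III, Uqcrc1 stood at 2064, 2092, 2072 and 2131 CPM in Pre and at 1592, 1587, 1779 and 1595 CPM in HiT (-0.35, SE 0.08, FDR 0.00214), and Uqcrc2, the other core protein, fell by 0.43 (SE 0.09, FDR 0.000779). Cyc1, the cytochrome subunit that hands electrons to cytochrome c, fell from 505, 434, 486 and 385 CPM to 319, 304, 312 and 348 CPM (-0.50, SE 0.18, FDR 0.0362). Cycs went from 484, 489, 503 and 485 CPM to 297, 313, 372 and 311 CPM, a log2 fold change of -0.60 (SE 0.11, FDR 0.000203). In each of these the groups were separate. Cyc1 was not called without Pre 1, Pre 2, Pre 3, HiT 1, HiT 2 or HiT 3.

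In complex IV the largest fall was that of Cox5a, a nuclear subunit on the matrix side of the complex, from 1676, 1611, 1620 and 1761 CPM to 1056, 1057, 1099 and 1166 CPM (-0.61, SE 0.08, FDR 2.47e-06). In complex V, Atp5g1, a gene for subunit c, fell from 750, 723, 765 and 828 CPM to 434, 473, 562 and 508 CPM (-0.63, SE 0.10, FDR 1.8e-05). The catalytic core subunits Atp5a1 and Atp5b, the strongest promoters of complex V, fell from 3488 to 2470 CPM (-0.50, FDR 5.46e-05) and from 2946 to 2197 CPM (-0.42, FDR 0.000316) on average. Atp5e, at 1481, 1792, 2114 and 1759 CPM in HiT, overlapped its Pre range of 1798 to 2354 CPM and was not called.

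**Figure D3:**
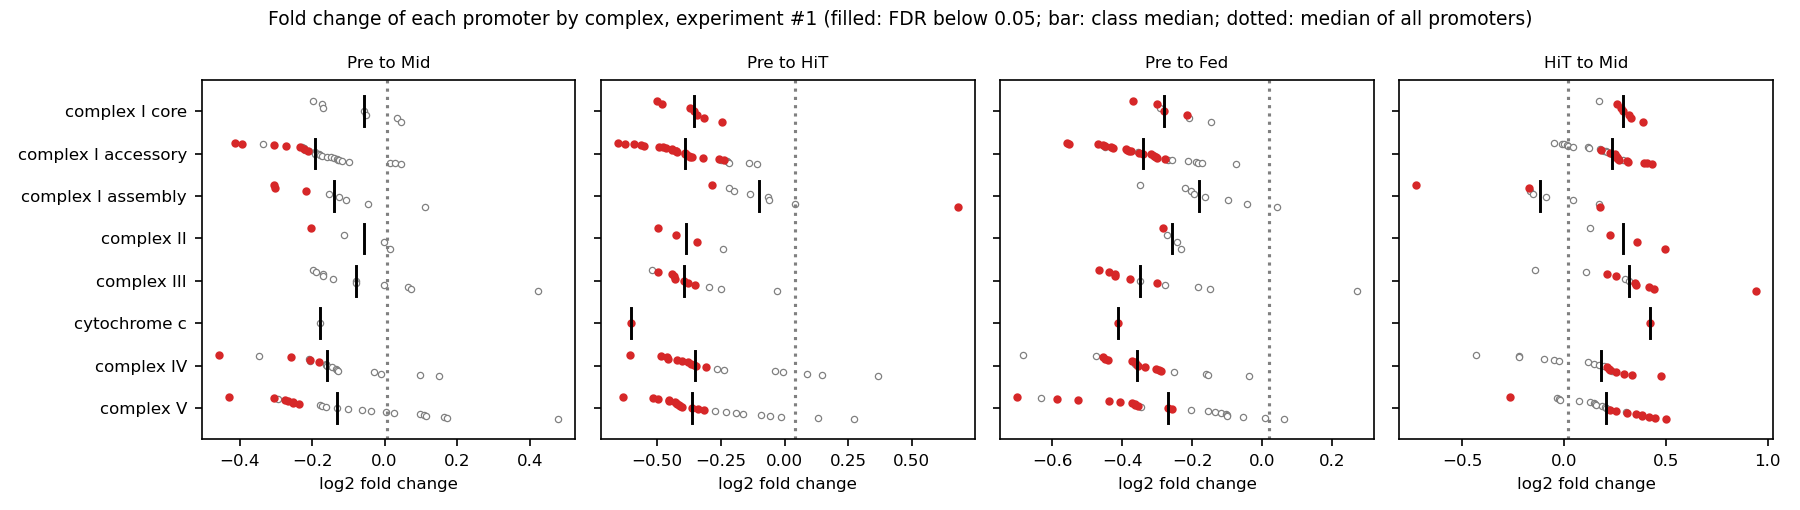
Log2 fold change of each promoter by class for 4 comparisons of experiment #1, with filled points at FDR below 0.05, bars for class medians and dotted lines for the median of all promoters. From Pre to HiT, 66 of 101 points are filled on the lower side and 1, Ndufaf2, on the upper side.

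Set against HiT directly, Mid was higher for 49 promoters and lower for 3, against 19.2% and 21.8% of all promoters, with a median of 0.22 beside 0.02. This is the comparison that separates torpor from the day at high ambient temperature. Core subunits of complex I were higher in 6 of 7 cases, accessory subunits in 15 of 29, complex II in 3 of 4, complex III in 7 of 11, complex IV in 7 of 18 and complex V in 9 of 23, and Cycs was higher too. Cox5a was at 1406 to 1639 CPM (median 1511) in Mid, above the 1056 to 1166 CPM of HiT (0.48, SE 0.07, FDR 6.59e-06). Atp5a1 was at 3236 to 3723 CPM (median 3514) in Mid, against 2427, 2189, 2766 and 2496 CPM in HiT (0.50, SE 0.07, FDR 7.41e-06). Sdhc was higher by 0.49 (SE 0.09, FDR 8.35e-05) and Atp5b by 0.45 (SE 0.07, FDR 2.71e-05), also without overlap. Uqcrc1 p3 had the largest log2 fold change, 0.94 (SE 0.23, FDR 0.00203), at the low level of 1.90 and 3.65 CPM on average.

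The 3 promoters that were lower in Mid than in HiT were Ndufaf2 (-0.73, SE 0.13, FDR 0.000118), Atp5e (-0.26, SE 0.10, FDR 0.0447) and Ndufaf8 (-0.17, SE 0.07, FDR 0.0473). Atp5e was not called without any 1 of Mid 2 to Mid 8 or HiT 2 to HiT 4, and Ndufaf8 without any 1 library other than Mid 5. Ndufaf2 had a median of 14.6 CPM and a highest value of 18.4 CPM in Mid, below every HiT library. The count called was 52 in all, 38 to 55 when single libraries were left out, and 26 without TMM. All 7 macrophage markers were lower in Mid than in HiT, and 5 of 9 slow fibre markers were higher and 1 lower. Their part in the result was not tested.

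From Pre to Fed, 52 promoters were down-regulated and none was up-regulated, against 5.32% and 5.88% of all promoters, with a median of -0.30 beside 0.02. No member was higher at an unadjusted p below 0.05, and 0 were called up by the likelihood ratio test or DESeq2. Down-regulated were 4 of 7 core and 18 of 29 accessory subunits of complex I, 1 of 4 of complex II, 6 of 11 of complex III, Cycs, 11 of 18 of complex IV and 11 of 23 of complex V. None of the 8 assembly factors passed the test, with 4 lower at an unadjusted p below 0.05, 0 by the likelihood ratio test and 1 by DESeq2. The count depended on single libraries and on scaling, and it was 12 without Fed 1 and 9 without Fed 2, 21, 31 and 28 without Pre 1, Pre 2 and Pre 3, and 0 without TMM, while the median stayed between -0.38 and -0.24 when single libraries were left out. The high red blood cell level of Fed 2 moved with its low respiratory sum and Fed 1, at 2814 CPM of these markers, was low as well, and the part of these cells in the result was not tested. Of 9 slow and 12 fast fibre markers 0 were called, with medians of -0.15 and -0.03.

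Several small subunits changed most in Fed. Atp5e read 1253, 1075, 1409 and 1190 CPM, below every Pre library, and fell by 0.70 on the log2 scale (SE 0.12, FDR 0.00405). Atp5k, the e subunit of the membrane part of complex V, read 57.9, 54.8, 70.5 and 59.7 CPM against 98.5, 85.5, 106 and 75.5 CPM in Pre (-0.59, SE 0.14, FDR 0.0131). Atp5l, its partner subunit g, fell by 0.53 (SE 0.10, FDR 0.00748). Ndufa5, of the peripheral arm of complex I, read 223, 208, 317 and 260 CPM against 383, 356, 402 and 342 CPM (-0.56, SE 0.10, FDR 0.00584), and Ndufc2 read 116, 119, 201 and 166 CPM against 237, 220, 216 and 209 CPM (-0.55, SE 0.17, FDR 0.0408). In all 5 the Fed and Pre libraries were separate. Atp5k was not called without Fed 1 or Fed 2, Ndufc2 was not called without Fed 1, Fed 2 or any 1 Pre library, and none of the 5 was called without TMM.

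Set against Fed, Mid was higher for 27 promoters and lower for 1, against 16.6% and 18.6% of all promoters, with a median of 0.17 beside a median of 0.00 for all. In this comparison the groups overlapped for every promoter named here. Atp5l was higher by 0.35 (SE 0.09, FDR 0.00406), Uqcrc2 by 0.34 (SE 0.08, FDR 0.00213), Uqcr10, a small subunit of complex III, by 0.30 (SE 0.08, FDR 0.00477) and Ndufa1, an accessory subunit of complex I, by 0.30 (SE 0.08, FDR 0.00807). The minor cluster Atp5b p3 was higher by 0.80 (SE 0.24, FDR 0.0128), from 5.756 to 9.999 CPM on average. Ndufa4l2 was lower by 0.30 in Mid (log2 fold change -0.30, SE 0.11, FDR 0.0352), and this call was lost without Mid 1, Mid 2, Mid 3, Mid 7, Mid 8, Fed 2, Fed 3 or Fed 4. Ndufa1 was not called without Fed 2. The count of 28 called fell to 13 without Fed 1, 8 without Fed 2, 13 with upper-quartile scaling and 2 without TMM (1 up and 1 down), and rose to 52 without Fed 3.

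HiT and Fed were themselves compared, and 6 promoters were higher in HiT and 14 lower, against 23.3% and 20% of all promoters, with a median of -0.05 beside 0.01. Ndufaf2 differed most, with 9.11 to 13.7 CPM in the 4 Fed libraries and no overlap with HiT (1.03, SE 0.16, FDR 1.71e-05). Atp5e (0.54, SE 0.12, FDR 0.00105), Cox6a1 (0.53, SE 0.16, FDR 0.00972), Uqcr11, a small subunit of complex III (0.39, SE 0.13, FDR 0.0143), and Cox7a2l, counted here with complex IV (0.28, SE 0.07, FDR 0.00257), were also higher in HiT. Lower in HiT were Uqcrc1 p3 (-0.79, SE 0.26, FDR 0.0157), Ndufb11 p2 (-0.58, SE 0.09, FDR 1.13e-05), Atp5a1 (-0.36, SE 0.08, FDR 0.00126), Atp5d, the delta subunit of the central stalk (-0.35, SE 0.07, FDR 0.000506), and Atp5b (-0.32, SE 0.08, FDR 0.00324). Within complex V, therefore, called members lay on both sides. Without TMM the split was 1 higher and 17 lower, and Atp5e, Cox6a1, Uqcr11 and Cox7a2l were not called. Cox6a1 was also not called without Fed 1, Uqcr11 without HiT 3 or Fed 2, and Uqcrc1 p3 without HiT 2 or Fed 1.

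Torpor deprivation left most members near the Mid level. The study found the metabolism of Dep mice similar to that of those Mid mice that were not torpid at sampling. From Mid to Dep, 2 promoters were up-regulated and none was down-regulated, against 1.16% and 0.872% of all promoters, with a median of 0.08 beside 0.00. At an unadjusted p below 0.05, 17 were higher and 2 lower, and DESeq2 called 2 up and 1 down where the likelihood ratio test called 2 up and 0 down. Ndufaf2 read 20.3, 23.2, 15.3 and 26.1 CPM in Dep (0.53, SE 0.14, FDR 0.0395), and Cox7b, a small subunit of complex IV, read 1470, 1601, 1372 and 1532 CPM against 949 to 1417 CPM (median 1151) in Mid (0.40, SE 0.11, FDR 0.0498). In both the groups overlapped by 1 or more libraries. Neither was called without Dep 1, Dep 2, Dep 4, Mid 2, Mid 3, Mid 4, Mid 5 or Mid 8, where the count was 0, and the count was 1 without Mid 1 or Mid 6. Dep 1 also carried the neutrophil markers, whose part was not tested.

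From Pre to Dep, 2 promoters were up-regulated and 5 down-regulated, against 13.7% and 12.1% of all promoters, with a median of -0.06 beside 0.00. Ndufaf4, an assembly factor of complex I, read 52.3, 56.9, 59.1 and 66.2 CPM in Dep against 46.1, 41.0, 41.3 and 46.9 CPM in Pre (0.42, SE 0.11, FDR 0.00797), and Ndufaf2 rose by 0.49 (SE 0.16, FDR 0.0249). Ndufaf8 (-0.33, SE 0.08, FDR 0.00278), Atp5j p2 (-0.35, SE 0.09, FDR 0.00754), Ndufb9 (-0.27, SE 0.08, FDR 0.0172), Ndufa4l2 (-0.40, SE 0.13, FDR 0.0254) and Ndufa3, an accessory subunit of complex I (-0.29, SE 0.10, FDR 0.0349), were lower. Groups overlapped for Ndufaf2, Ndufa3 and Ndufa4l2 and were separate for the others. The call was lost for Ndufaf2 without Pre 2, Pre 4, Dep 2 or Dep 4, for Ndufa3 without Pre 1, Pre 2, Pre 3, Dep 1 or Dep 2, for Ndufa4l2 without Pre 4, Dep 1, Dep 3 or Dep 4 and for Ndufb9 without Pre 4. The count was 4 without Pre 4, 13 (1 up and 12 down) with upper-quartile scaling and 3 (0 up and 3 down) without TMM.

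**Figure D4:**
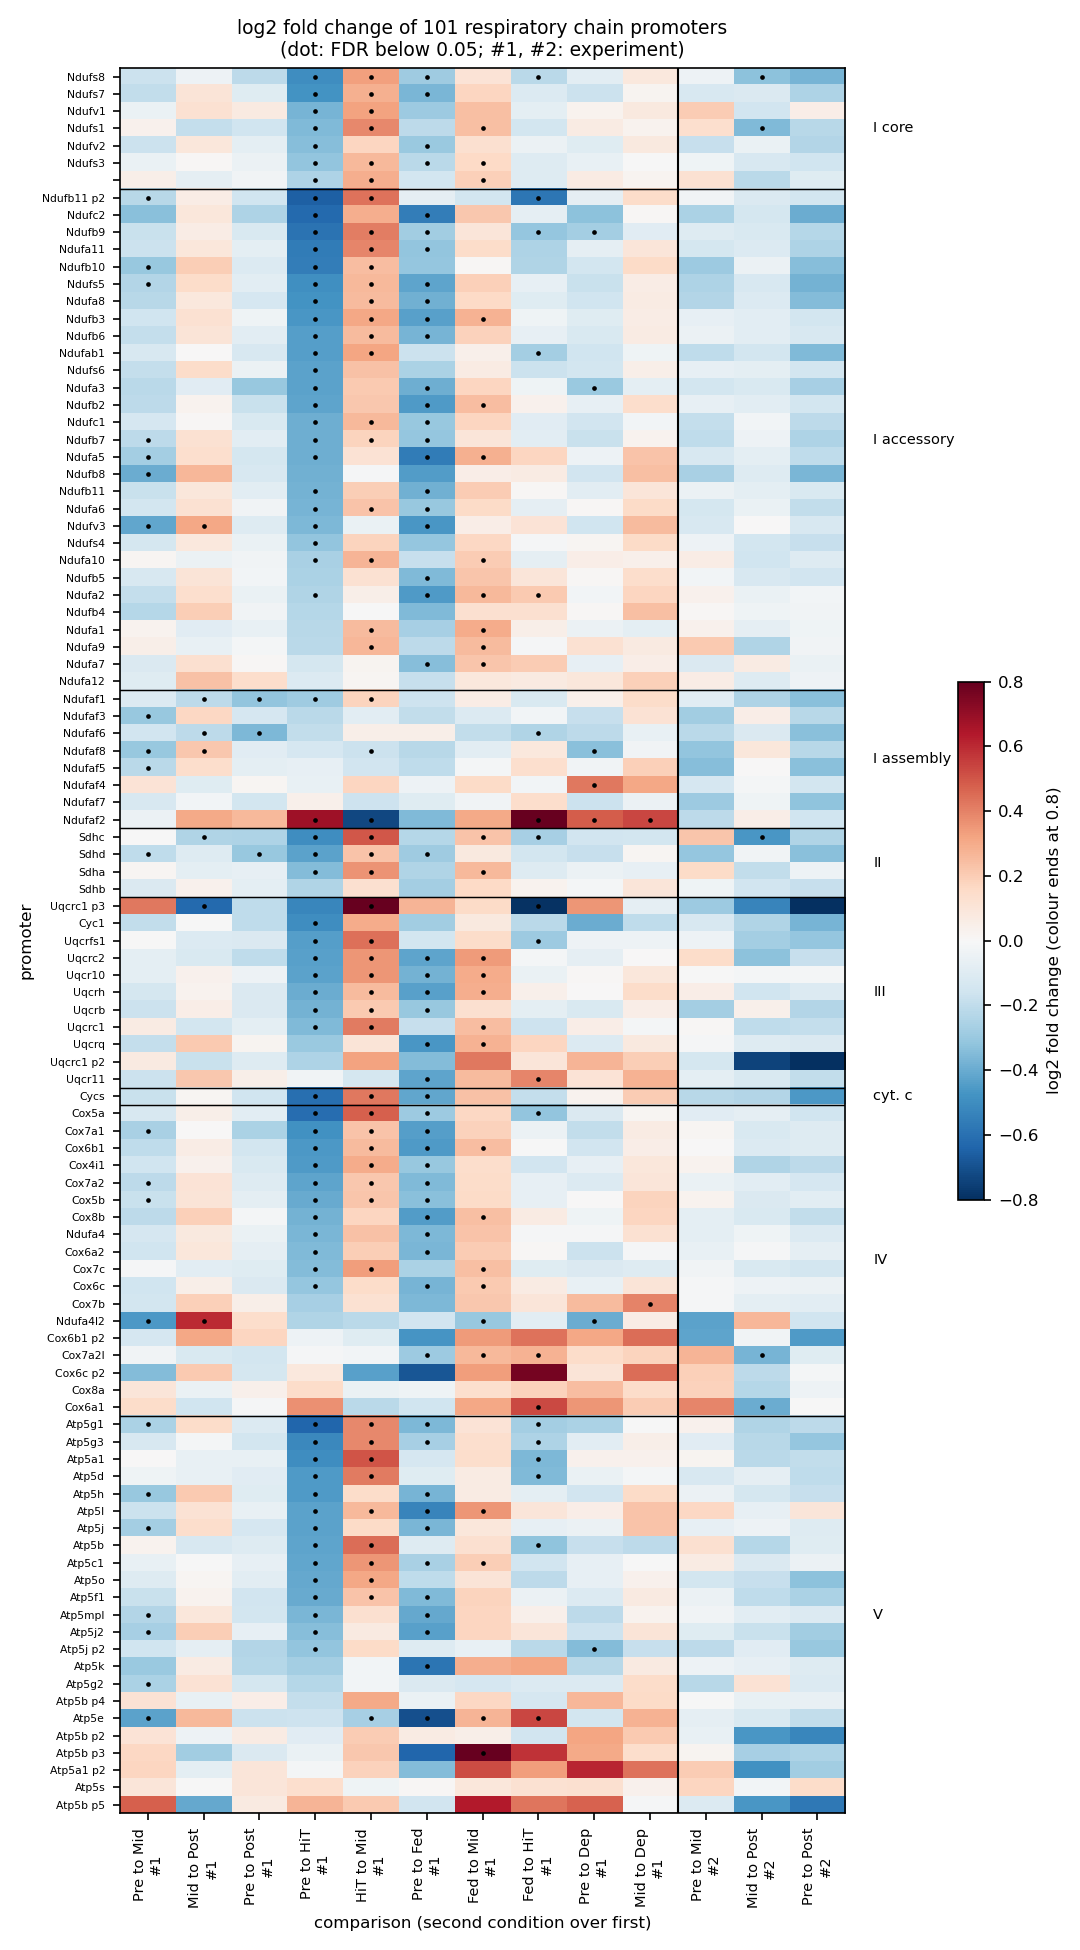
Log2 fold change (colour, ending at 0.8) of all 101 promoters, ordered by complex, in the 10 comparisons of experiment #1 and the 3 of experiment #2, with dots at FDR below 0.05. The column from Pre to HiT is lower for most rows in every complex, and the assembly factor Ndufaf2 has the opposite colour.

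Over the 10 comparisons of experiment #1, 88 of the 101 promoters were called at least once and 13 were not, where 77.8% of all promoters tested were called at least once. Only Ndufaf2 and Ndufaf4, both assembly factors of complex I, were up-regulated in any comparison that starts from Pre under the main test. Atp5e was called from Pre to Fed and not from Pre to HiT, and its difference between HiT and Fed passed the test, as given above.

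Complex IV has subunits with a muscle form and a general form. The difference in change between the forms was not tested. All 3 muscle forms, Cox6a2, Cox7a1 and Cox8b, were down-regulated from Pre to HiT and from Pre to Fed, with log2 fold changes between -0.49 and -0.36. Cox6a2 read 8511, 8002, 8200 and 8403 CPM in Pre, 6288, 6855, 6510 and 6220 CPM in HiT and 5784, 5631, 7304 and 7005 CPM in Fed. Of the general forms, Cox7a2 was down-regulated in both as well. From Pre to Fed the calls of Cox6a2, Cox8b and Cox7a2 were lost without Fed 1 or Fed 2, and that of Cox6a2 also without Pre 1. Cox6a1 read 219, 193, 160 and 186 CPM in Pre and 242, 262, 217 and 257 CPM in HiT (0.37, SE 0.16, FDR 0.0788), and Cox8a read 327, 317, 268 and 280 against 339, 331, 322 and 330 CPM. Neither of these was called from Pre to HiT.

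Ratios of the forms within a library do not depend on scaling and are given as a description. The ratio of Cox6a2 to Cox6a1 was 38.8 to 51.3 in Pre, 27.1 to 40.0 in Mid, 35.6 to 51.2 in Post, 24.2 to 29.9 in HiT, 30.99 to 50.95 in Fed and 23.4 to 33.9 in Dep. HiT and Dep did not overlap Pre. In experiment #2 it was 31.65 to 33.4 in Pre, 20.5 to 27.2 in Mid and 25.9 to 37.75 in Post, and Mid did not overlap Pre. The ratio of Cox8b to Cox8a was 17 to 21.8 in Pre, 13.35 to 18.3 in Mid, 16.5 to 19.5 in Post, 11.55 to 14.3 in HiT, 12.1 to 16.5 in Fed and 12.4 to 18.6 in Dep, and here HiT and Fed did not overlap Pre. In experiment #2 it was 10.15 to 10.8 in Pre, 8.07 to 9.83 in Mid and 8.37 to 10.8 in Post, again with Mid apart from Pre. The ratio of Cox7a1 to Cox7a2 was 0.574 to 0.623 in Pre and between 0.49 and 0.655 in the other groups of experiment #1, each of which overlapped Pre.

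**Figure D5:**
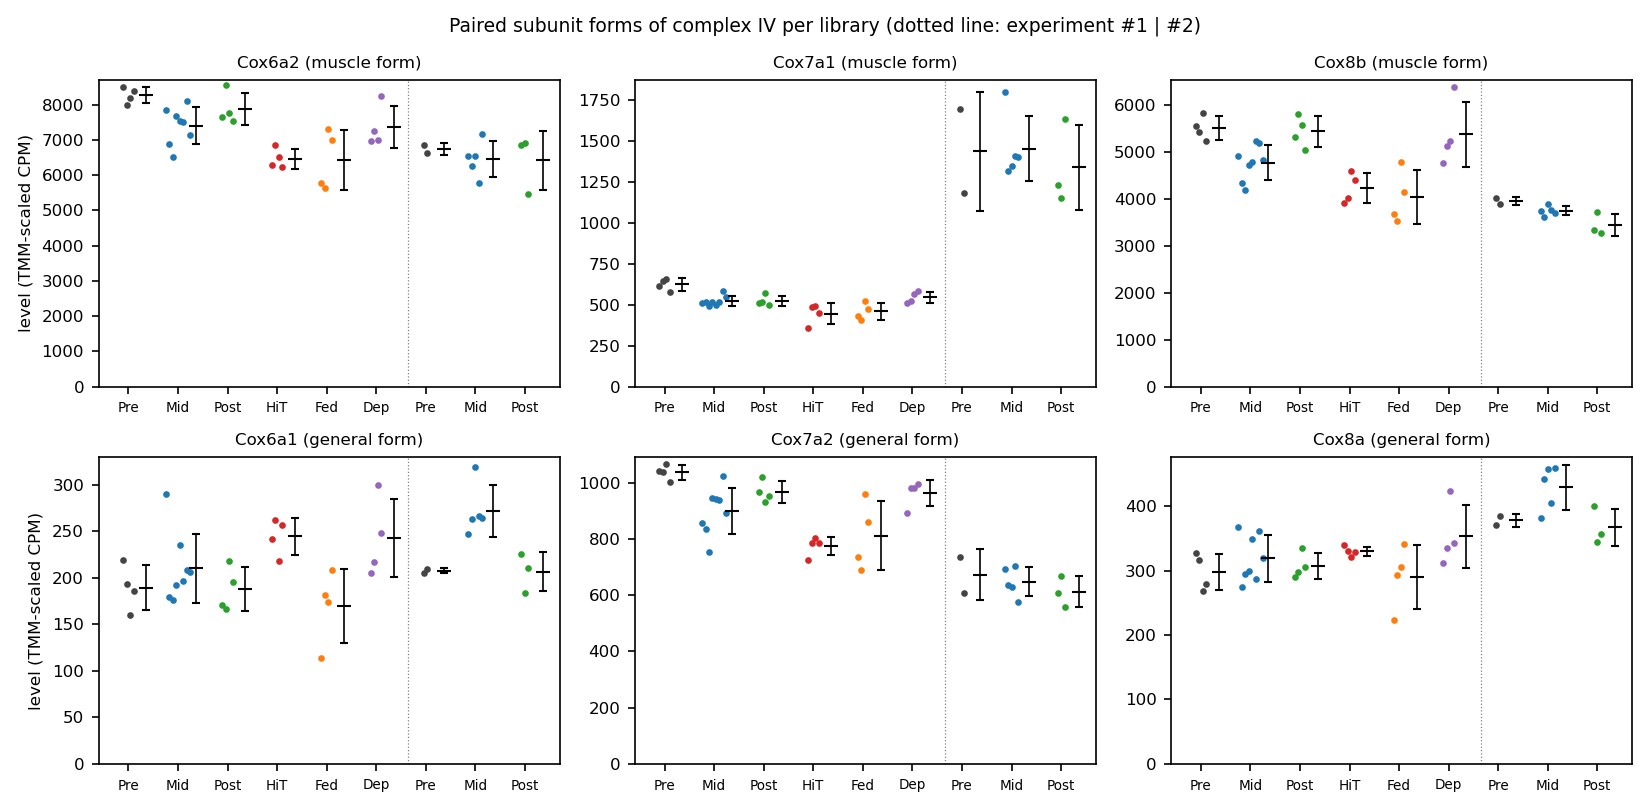
Level (TMM-scaled CPM) of the muscle forms (upper row) and general forms (lower row) of 3 complex IV subunits in every library, with points for mice and bars for mean ± SD. In HiT of experiment #1 the muscle forms lie below their Pre values, while Cox6a1 (217 to 262 CPM) and Cox8a (322 to 339 CPM) do not.

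Other genes of the pathway were followed with 1 promoter each. Of 41 other assembly factors of the complexes with a cluster, 2 were up- and 15 down-regulated from Pre to Mid (median -0.13), 12 up and 5 down from Mid to Post (median 0.13), and 2 up and 13 down from Pre to HiT (median -0.15). Cox20, a chaperone for complex IV, went from 28.3 CPM in Pre to 18.9 in Mid and 26.8 in Post (FDR 4e-05 and 0.000159), and Coa6, another such factor, from 38.7 to 26.8 and 38.5 CPM (FDR 0.000229 and 0.000216). Sco2, which delivers copper to complex IV, moved the other way, from 14.3 to 29.9 and 10.9 CPM (FDR 3.7e-05 and 4.83e-07). Of 10 genes for transcription and translation in mitochondria, 4 were up and 2 down from Pre to Mid, 2 up and 2 down from Pre to HiT, and 8 were higher in Mid than in Fed with 0 lower. Regulators of respiratory genes numbered 8, with 3 up and 2 down from Pre to Mid. Over all promoters 15.4% were up and 14.8% down from Pre to Mid, and 17.5% each way from Mid to Post. The shares were 18.5% up and 14.9% down from Pre to HiT, and 16.6% up and 18.6% down from Fed to Mid. The 15 of 41 down from Pre to Mid and the 8 of 10 higher in Mid than in Fed lie well above such shares. Some other counts, as the 2 of 10 each way from Pre to HiT, lie near them. No difference from the shares was tested.

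Among these regulators Ppargc1a, which encodes PGC-1α, averaged 6.92 CPM in Pre, 190 in Mid, 3.00 in Post, 34.7 in HiT, 3.04 in Fed and 212 in Dep. The log2 fold change from Pre to Mid was 4.78 (FDR 7.07e-06) and from Mid to Post -5.97 (FDR 5.96e-07). Gabpa, a subunit of GABP, averaged 30.5, 45.4, 30.8, 38.6, 36.4 and 45.1 CPM in the same order, and rose by 0.57 from Pre to Mid (FDR 4.78e-06). Perm1, a regulator of muscle mitochondria, averaged 74.1 CPM in Pre, 77.9 in Mid and 46.5 in HiT, and was lower in HiT than in Pre by 0.67 on the log2 scale (FDR 0.000285). Ppargc1a and Gabpa thus rose from Pre to Mid, where none of the 101 respiratory chain promoters was called up, while other regulators fell, as counted above. A link between the regulators and these promoters was not tested.

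Experiment #2 repeated Pre, Mid and Post in other mice. From Pre to Mid 0 of the 101 members were called, against 5.30% up and 4.44% down over all promoters, with a median of -0.06 beside 0.00. At an unadjusted p below 0.05, 2 were higher and 8 lower, the likelihood ratio test called 0 and DESeq2 2. From Mid to Post 5 were down-regulated and 0 up-regulated, against 8.65% and 7.73%, with a median of -0.12 beside -0.01, and 0 were higher at an unadjusted p below 0.05 or by the other tools. From Pre to Post 0 were called, against 0.0832% lower and 0.0277% higher, with a median of -0.19 beside 0.00. At an unadjusted p below 0.05, 0 were higher and 20 lower, and the other tools called 0. The Pre libraries ran in lane 3 and the Post libraries in lane 4, so that lane and day cannot be told apart between these groups. A fit with lane as a term is given in the last section.

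The 5 promoters that fell from Mid to Post in experiment #2 were Sdhc, Cox6a1, Cox7a2l, Ndufs1 and Ndufs8. Sdhc read 219, 193, 209, 251 and 186 CPM in Mid and 142, 169 and 148 CPM in Post (-0.47, SE 0.11, FDR 0.0157). Cox6a1 read 247, 263, 319, 266 and 264 CPM in Mid and 225, 184 and 211 CPM in Post (-0.40, SE 0.10, FDR 0.0259). Cox7a2l (-0.37, FDR 0.0259), Ndufs1 (-0.35, FDR 0.0335) and Ndufs8 (-0.33, FDR 0.0213) fell as well, and in all 5 the groups were separate. All 3 Post libraries and Mid 13 were sequenced in lane 4 and the rest in lane 3, and with lane as a term in the fit 0 of the 101 were called and the median was -0.011. Only Mid 13 links the lanes within a condition. The count was 2 without Mid 12 or Post 6 and 0 without Post 7. Sdhc was also lost without Post 5, Cox6a1 without Post 6 and Cox7a2l without Mid 11, Mid 12, Post 5 or Post 6.

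Side by side, Ndufaf8 changed by -0.31 from Pre to Mid in both experiments (FDR 0.00131 and 0.0849), Sdhd by -0.20 and -0.31 (FDR 0.0214 and 0.058), Ndufa4l2 by -0.46 and -0.43 (FDR 0.00257 and 0.183), Ndufv3 by -0.41 and -0.13 (FDR 0.000973 and 0.52) and Atp5e by -0.43 and -0.07 (FDR 0.00264 and 0.783). For 79 of the 101 members the change from Pre to Mid had the same sign in both, and for 65 of these it was lower in both. From Mid to Post 45 had the same sign, and from Pre to Post 86, of which 84 were lower. These counts stand without the share over all promoters. In experiment #2 the Pre and Post libraries also ran in different lanes. A shift of the members as a set in the same direction gives many shared signs, so the counts do not show that single promoters replicate. The difference between the experiments in the change itself, tested as an interaction in edgeR, was called for 0 members and 0% of all promoters in either comparison. At an unadjusted p below 0.05 it was 7 members of 101 (515 of 10818 promoters) from Pre to Mid and 17 (563 of 10819) from Mid to Post, and the likelihood ratio test and DESeq2 called 0.

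The levels of several members differed severalfold between the experiments. The ratio of Pre levels, experiment #2 over #1, had a median of 0.996 over the members, but 17 were over 2 and 10 under 0.5, together 26.7% against 18.3% of all promoters. Atp5g3 averaged 402 CPM in Pre of experiment #1 and 1767 CPM in experiment #2, and Atp5g2, another gene for the same subunit, 73.5 and 14.1 CPM. Ndufa3 averaged 104 and 22.0 CPM, Sdhc 62.7 and 181 CPM and Cox7a1 625 and 1437 CPM, so that the ratio of Cox7a1 to Cox7a2 was 0.49 to 0.655 in experiment #1 and 1.72 to 2.93 in experiment #2. Mice and sequencing run changed together between the experiments and cannot be told apart, and the experiments were scaled separately. The study also names both a NextSeq and a HiSeq sequencer for experiments #1 and #2, and the columns of counts are named differently. Sequencer and read processing may therefore differ as well, and they cannot be told apart from mice and run.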

How the data were processed

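Soleus RNA of 38 mice was profiled by no-amplification CAGE. The deposited counts are whole tags per cluster; to obtain them the authors trimmed reads, aligned these with BWA and HISAT2 to the mouse genome (build mm10, as in the submitters' processing notes), and grouped 5′ ends into clusters with PromoterPipeline. The deposited TPM values are the same tags divided by the library total by the authors, and served here only for levels. The unit of replication was the library of 1 mouse, and replicates were not pooled.

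Members were matched to GENCODE vM21 5′ ends within 500 bp. The members, gene lists and tests were chosen with earlier results of these data known. Each experiment was normalised by TMM and fitted alone with all of its groups by edgeR's quasi-likelihood test (edgeR 4.0.16, limma 3.58.1, R 4.3.3), as the study also used edgeR with TMM. Of the 10819 clusters 10776 were tested in experiment #1 and 10816 in experiment #2, with Benjamini-Hochberg FDR over all of them and a threshold of 0.05. Standard errors are of the fitted log2 fold changes. The scripts, with Python 3.11.15, pandas 2.3.3 and numpy 2.4.6, were tested on simulated data. Alternatives were DESeq2 1.42.0, the likelihood ratio test, other scalings and filters, fits of only the groups compared, a replicate block, lane or experiment as terms, and leaving out each library. Where Pearson's r across promoters or ratios are given, they are descriptions.

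The promoters named in the text were, for each class, the 2 with the highest mean TPM in experiment #1, all of complex II, Cyc1 and Cycs, the muscle, general and low-oxygen forms of complex IV, and for each comparison of experiment #1 the 5 called members with the largest change in each direction, together 46, of which 1 is not reported here. Others named were chosen after their values were seen. No 2 libraries agreed within sampling noise, as the lowest chi-square per promoter over the 72 pairs within a group was 12.4. Depth was 9359994 to 39176649 tags, and counting error is largest for members at a few CPM, the lowest count of a member being 16 tags. Promoter sequences came from RefSeq and motifs were searched on both strands by exact letters.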

Additional observations from a re-analysis of the deposited data

Results flagged for a closer look

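In groups of 4 to 10 mice, the highest or lowest mouse was set against the range of its group for the named promoters and the sums of the 8 classes, and 19 of 371 groups held a mouse that stood apart by Dixon's criterion. Chance alone gives about 1 in 20. In experiment #1, Pre 4 was low for Ndufa1 (336.4 CPM, nearest other 398.1) and high for Ndufb9 (1511, nearest 1398). Mid 6 was high for Ndufa4l2 (21.51 CPM, nearest 17.61), the mouse that overlapped the Pre range of this promoter. In Post, Post 4 was low for Cox5a (1477 CPM, nearest 1596) and Ndufaf2 (13.69, nearest 19.08), Post 2 was high for Ndufa4l2 (28.39, nearest 24.72) and Ndufb5 (1543, nearest 1417), and Post 3 was high for Ndufv3 (336.8, nearest 276.8).

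In HiT, HiT 1 was low for Ndufa3 (69.92 CPM, nearest 79.75) and Ndufv3 (202.7, nearest 255.9), and HiT 3 was high for Uqcrc1 (1779, nearest 1595). In Dep, Dep 1 was low for Cox7a2 (892.9 CPM, nearest 982.1), Dep 2 was high for Ndufb11 p2 (50.89, nearest 46.08) and Dep 4 was high for Ndufv3 (341.4, nearest 261.5). In experiment #2 all 5 lay in Mid, namely Mid 9 for Atp5l (556.8 CPM, nearest 471.8) and Cox7a1 (1799, nearest 1411), Mid 10 for Atp5k (261.9, nearest 237.5) and Mid 11 for Cox6a1 (319.2, nearest 266.1), all high, and Mid 13 for Ndufc2 (331.8, nearest 379.2), which was low.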

How the results depend on the processing

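Of 251 alternative counts of called members 179 lay within 1.5 times the main count, and of 241 alternative medians 234 moved by less than the spread. Without TMM the median of all promoters was 0.11 from HiT to Mid, -0.12 from Fed to Mid, -0.13 from Pre to HiT, -0.18 from Pre to Dep and -0.21 from Fed to HiT, and with scaling over gene starts it was 0.10 from Pre to HiT. Relative to the median of all promoters, the members' median lay between -0.42 and -0.41 from Pre to HiT under every scaling. From Pre to Mid it lay between -0.17 and -0.16. A change of scaling shifts all promoters of a library alike, so this difference is nearly fixed in advance and is no check of the result.

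Without TMM, the count called was 4 from Pre to Mid, 1 from Mid to Post, 26 from HiT to Mid, 2 from Fed to Mid, 0 each from Mid to Dep, Pre to Post and Pre to Fed, 3 from Pre to Dep and 1 from Mid to Post in experiment #2. The median was then -0.15 from Pre to Post, -0.56 from Pre to HiT, -0.25 from Pre to Dep, -0.30 from Fed to HiT and -0.031 from Mid to Post in experiment #2. With upper-quartile scaling the count was 50 from Pre to Mid, 15 from Mid to Post, 13 (10 up, 3 down) from Fed to Mid, 1 from Mid to Dep, 13 from Pre to Dep and 2 from Pre to Mid in experiment #2. With scaling over tags at gene starts, chosen after seeing the data, it was 51, 22 (20 up, 2 down) and 14 (9 up, 5 down) from Pre to Mid, Mid to Post and Fed to Mid, 16 (2 up, 14 down) from Pre to Dep, and 2 and 1 from Pre to Mid and Mid to Post in experiment #2. From HiT to Mid it gave 29 up and 7 down.

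Fitted with only the groups compared, the count was 4 from Fed to Mid, 0 from Mid to Dep, 1 from Pre to Post, 6 from Pre to Fed and 10 from Fed to HiT. All 38 libraries with experiment as a term gave 13 (3 up, 10 down) from Mid to Post and 7 from Pre to Post. DESeq2 gave 2 from Pre to Mid and 10 from Mid to Post in experiment #2, and lane as a term 0 from Mid to Post with a median of -0.011, and a median of -0.062 from Pre to Post. With the replicate number as a block, 13 were called from Mid to Post, 29 from HiT to Mid and 6 from Fed to Mid in experiment #1. The numbers do not pair mice, since 60 same-numbered pairs had a mean correlation of deviations of -0.031 (17 over 0.1), against 0.00722 for 260 others.

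Leaving out each library gave 8 to 24 from Pre to Mid, 2 to 7 from Mid to Post, 38 to 55 from HiT to Mid, 8 to 52 from Fed to Mid, 0 to 3 from Mid to Dep, 0 to 2 from Pre to Post, 62 to 72 from Pre to HiT, 9 to 68 from Pre to Fed, 4 to 6 from Pre to Dep and 14 to 26 from Fed to HiT, and 0 to 2 from Pre to Mid, 0 to 7 from Mid to Post and 0 to 0 from Pre to Post in experiment #2. In experiment #2 from Pre to Mid, 2 were called without Mid 9 and 1 without Mid 11. The cause of these differences was not tested.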
